A study of Mus musculus with 6 samples.

Results

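The 9 genes described here encode proteins that hold the cell cycle back. They are the CIP/KIP inhibitors *Cdkn1a* (p21), *Cdkn1b* (p27kip1) and *Cdkn1c* (p57), the INK4 inhibitors *Cdkn2a* (p16), *Cdkn2b* (p15), *Cdkn2c* (p18) and *Cdkn2d* (p19), and the antiproliferative BTG genes *Btg1* and *Btg2*. *Cdkn2a* also encodes p19Arf, which is not an INK4 protein. They were chosen by name as the genes of these families, and they are 9 of the 23420 genes in the count table. The mRNA of splenic B cells was sequenced from 3 Ahr+/+ and 3 Ahr-/- mice, 1 library per mouse. Both genotypes are given as C57Bl/6J, and the mice of the study were in general adults matched for age and sex. The Ahr-/- mice of the study carry the tm1Bra allele. The deficiency is germline, so every cell of the Ahr-/- mice carries it, and B cells were purified by negative selection, which left a minority of other cells. Culture lasted 8 h in both genotypes, with IL-4 at 20 ng/ml and α-IgM, an antibody against the B cell receptor, at 10 μg/ml. FICZ, a tryptophan-derived ligand of the aryl hydrocarbon receptor (AhR), was added at 250 nM for the last 4 h in both genotypes. All 6 libraries therefore come from activated, ligand-treated cells, and no resting or FICZ-free library was analysed here.

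CIP/KIP proteins bind complexes of cyclins with cyclin-dependent kinases (CDKs), whereas INK4 proteins bind CDK4 and CDK6 and keep them from D-type cyclins. BTG proteins recruit the CCR4-NOT deadenylase to mRNAs, which shortens their poly(A) tails. *Btg1* and *Btg2* are known for maintaining quiescence in lymphocytes, and p27kip1 is removed when B cells enter the cycle after engagement of the B cell receptor. The levels of p21 and p27kip1 proteins are also set by ubiquitin-dependent turnover, which mRNA counts do not show.

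Total counts were 34402709 to 40065169 in Ahr+/+ mice, against 22095096 to 53648787 in Ahr-/- mice. A floor of 3 counts corresponded to 0.0555 to 0.134 CPM, the count scaled by the size of its library, and reflects counting error alone. *Cyp1a1*, a target gene of AhR, had 5246 ± 243 normalised counts in Ahr+/+ libraries but 5.36 ± 2.20 in Ahr-/- libraries (mean ± SD, n = 3 mice each), as a check of the labels. Counts of *Ahr* itself were 13175 ± 682 and 9174 ± 472, and these counts cover the whole gene, with no view of which exons were read. *Cd79a*, which encodes a signalling chain of the B cell receptor, had between 6655 and 15685 counts in the 6 libraries, before scaling for depth. Normalised, it had 9894 ± 487 counts in Ahr+/+ and 11839 ± 968 in Ahr-/- libraries, and was higher (adjusted p = 0.00597 from edgeR). In bulk RNA, fewer cells of a type and less RNA per cell cannot be told apart. All 9 genes passed the filter of at least 10 counts over the 6 libraries and were among the 13682 genes tested.

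Per length of their exons, the 9 genes spanned a wide range of levels, and their order was the same in both genotypes. In Ahr+/+ B cells *Btg1* stood at 66.6 ± 4.59 and *Btg2* at 36.7 ± 1.08 RPKM (reads per kilobase of exon, scaled to the library as CPM, SD, n = 3 mice). *Cdkn1a* followed at 7.43 ± 1.51 and *Cdkn1b* at 6.11 ± 0.218 RPKM. With these lengths the neighbours did not differ beyond their spread in Ahr+/+ B cells. With the length of its longest transcript *Cdkn1a* stood at 12.7 ± 2.58 RPKM, above *Cdkn1b* beyond their spread. *Cdkn2d* stood at 1.21 ± 0.190 and *Cdkn2c* at 0.784 ± 0.0819 RPKM. *Cdkn1c* (0.188 ± 0.0377), *Cdkn2b* (0.187 ± 0.0209) and *Cdkn2a* (0.114 ± 0.0179) were the lowest, and the first 2 of them did not differ beyond their spread. In Ahr-/- B cells the levels were 94.8 ± 3.42 RPKM for *Btg1* and 30.9 ± 1.13 RPKM for *Btg2*, and 6.24 ± 0.265 and 5.50 ± 0.241 RPKM for *Cdkn1a* and *Cdkn1b*, where every value of *Cdkn1a* lay above those of *Cdkn1b*.

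Across the 9 genes, 1 rose and 1 fell without AhR when adjusted p was required to be under 0.05 in edgeR's quasi-likelihood test, and 7 did not pass. Over all tested genes 17.9% passed, 9.79% as higher and 8.13% as lower. The values of both genotypes did not overlap for 4 of the 9 genes, against 33.5% of all genes tested. The median log2 fold change was −0.16 over the 9 genes, close to 0 over all genes tested. The genes that passed were *Btg1*, which was higher, and *Btg2*, which was lower.

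**Figure D1:**
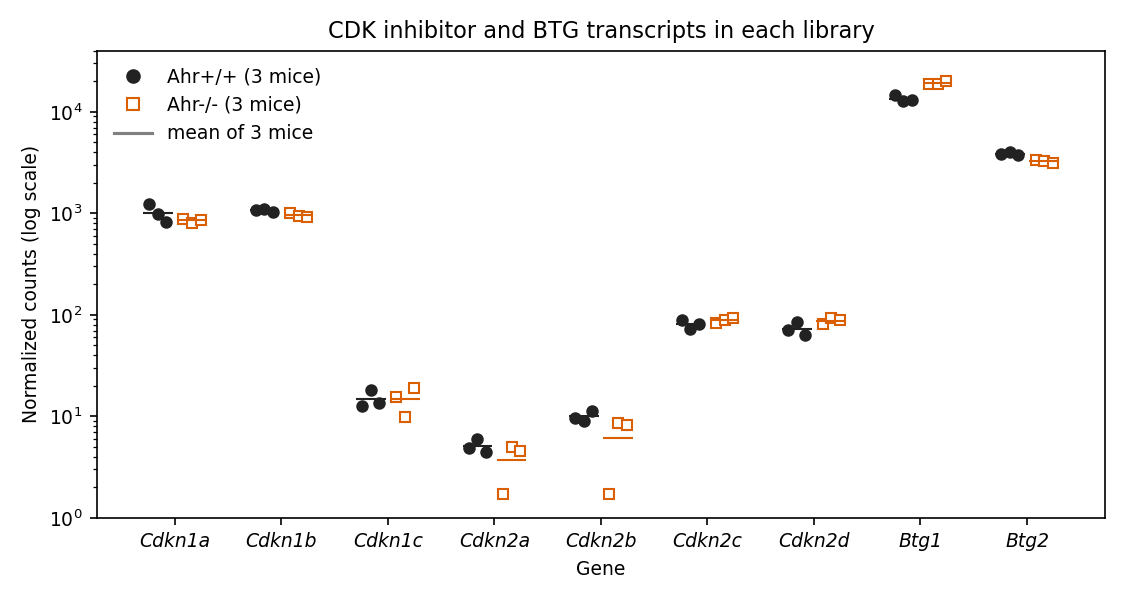
Normalised counts of the 9 genes in each library, with a line at the mean of each genotype (n = 3 mice). *Btg1* is higher and *Btg2* lower in every Ahr-/- library, and the values of *Cdkn1a* overlap between the genotypes.

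*Btg1* lies on chromosome 10 of GRCm38 from 96617006 to 96622809 on the plus strand. It had 14563, 12809 and 13145 normalised counts in Ahr+/+ mice, against 18680, 18992 and 20005 in Ahr-/- mice. Every Ahr-/- library was above every Ahr+/+ library. The means were 13506 ± 931 and 19226 ± 693 normalised counts (SD, n = 3 mice each), a fold of 1.42 with a 95% interval of 1.32 to 1.53. The log2 fold change was 0.51 ± 0.0485 (SE, edgeR, adjusted p = 1.04e-05), and a two-sided exact permutation test gave p = 0.1, the smallest that 3 mice against 3 allow. Of the 13682 genes tested, *Btg1* ranked 266 by p-value. The annotation holds *Btg1-ps1* and *Btg1-ps2* on chromosome X, named as pseudogenes of *Btg1* but given the biotype protein coding, and neither symbol has a row in the count table, so how reads shared with them were counted is uncertain.

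*Btg2*, which is also a target gene of p53, lies on chromosome 1 from 134075170 to 134079120 on the minus strand. It had 3854, 3981 and 3756 normalised counts in Ahr+/+ mice, against 3376, 3247 and 3138 in Ahr-/- mice. Again the genotypes did not overlap, but in the opposite direction to *Btg1*. The means were 3864 ± 113 and 3254 ± 119 normalised counts (SD, n = 3 mice each), a fold of 0.841 with a 95% interval of 0.790 to 0.895. The log2 fold change was −0.25 ± 0.0412 (SE, edgeR, adjusted p = 9.56e-04, exact permutation p = 0.1). Both genes kept their direction and passed the threshold in all 15 alternative analyses, with log2 fold changes of 0.47 to 0.57 for *Btg1* and −0.27 to −0.22 for *Btg2*.

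The count of *Btg2* relative to *Btg1* within a library was 0.265, 0.311 and 0.286 in Ahr+/+ and 0.181, 0.171 and 0.157 in Ahr-/- B cells. The ratio was lower in every Ahr-/- library, by 0.76 on the log2 scale, with an exact permutation p = 0.1, or 0.3 when adjusted over the 3 ratios computed. Summed, both BTG genes amounted to 437 to 479 CPM in Ahr+/+ and 574 to 602 CPM in Ahr-/- B cells.

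**Figure D2:**
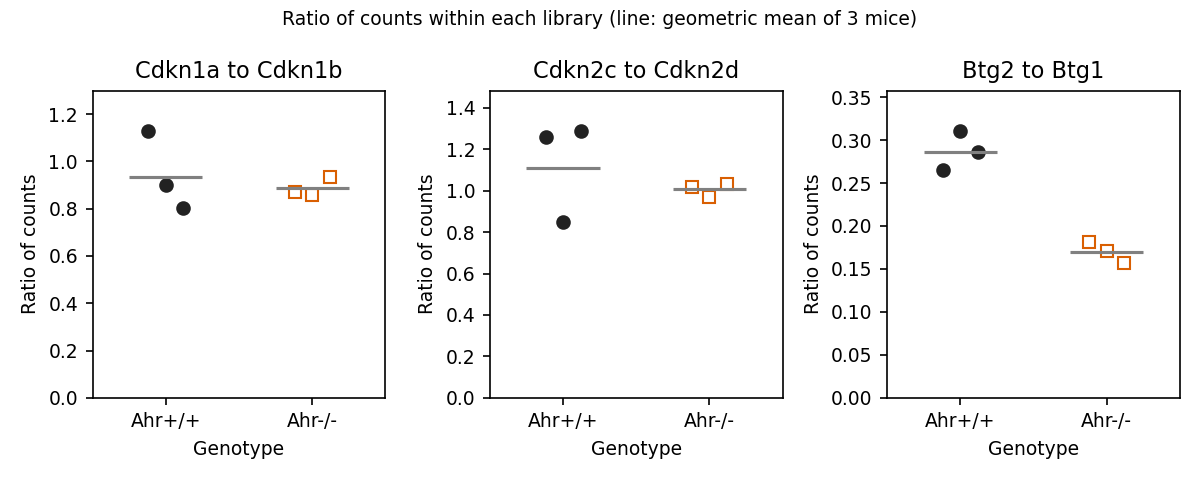
Ratio of normalised counts of 3 gene pairs within each library. The *Btg2* to *Btg1* ratio is separated between the genotypes, and the ratios of *Cdkn1a* to *Cdkn1b* and of *Cdkn2c* to *Cdkn2d* overlap.

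The sequences upstream of *Btg1*, *Btg2* and *Cdkn1b* are shown because these are the genes whose values did not overlap between the genotypes at more than a few counts per library. They are the 250 bases before the RefSeq start of each gene, 5′ to 3′ on the gene's strand (GRCm38.p6), with capitals marking the AhR core GCGTG on either strand (CACGC on the other). The windows are chr10:96616751-96617000 (plus strand), chr1:134079156-134079405 (minus strand) and chr6:134920151-134920400 (plus strand).
Btg1: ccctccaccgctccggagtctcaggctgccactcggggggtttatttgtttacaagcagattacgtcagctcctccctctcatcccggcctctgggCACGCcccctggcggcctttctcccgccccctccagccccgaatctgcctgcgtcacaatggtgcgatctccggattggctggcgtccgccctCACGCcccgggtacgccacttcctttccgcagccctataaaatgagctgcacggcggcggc
Btg2: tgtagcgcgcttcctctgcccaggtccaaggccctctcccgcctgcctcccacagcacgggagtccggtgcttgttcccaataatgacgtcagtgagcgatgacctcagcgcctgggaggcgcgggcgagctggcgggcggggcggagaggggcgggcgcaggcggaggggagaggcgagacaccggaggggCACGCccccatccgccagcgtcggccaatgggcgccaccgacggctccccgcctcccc
Cdkn1b: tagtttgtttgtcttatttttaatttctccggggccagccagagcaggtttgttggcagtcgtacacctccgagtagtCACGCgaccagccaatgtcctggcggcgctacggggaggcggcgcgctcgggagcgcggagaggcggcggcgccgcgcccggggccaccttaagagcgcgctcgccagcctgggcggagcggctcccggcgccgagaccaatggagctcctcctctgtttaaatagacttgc
The core was found in the *Btg1* window at −154 and −61 from the start, in that of *Btg2* at −58 and in that of *Cdkn1b* at −172, where it is part of the longer core TNGCGTG. Promoter windows of 300 bases (250 before and 50 from the start) matched 8 of the 9 genes, and the core was found in 8 of their 11 windows. Over all 32851 promoters of this length, 32.4% held the core, 11.1% held at least 2 and 5.07% held TNGCGTG. A match of these letters is a description and not a binding site.

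Among the CIP/KIP inhibitors no gene passed the threshold by edgeR, and 2 of 3 had an unadjusted p under 0.05, as did 29.4% of all genes tested. *Cdkn1b* lies on chromosome 6 from 134920401 to 134925513 on the plus strand. It had 1090, 1094 and 1025 normalised counts in Ahr+/+ mice, against 1009, 945 and 930 in Ahr-/- mice. The genotypes did not overlap, but the gap between the nearest libraries was small. The means were 1070 ± 38.4 and 961 ± 42.1 normalised counts (SD, n = 3 mice each), a fold of 0.895 with a 95% interval of 0.826 to 0.969. The log2 fold change was −0.16 ± 0.0527 (SE, edgeR, adjusted p = 0.055, exact permutation p = 0.1). *Cdkn1b* passed in 4 of the 15 alternatives, in which adjusted p ranged from 0.0376 to 0.192. It was 0.0468 with DESeq2 size factors, 0.0429 with limma-voom, 0.0489 with a robust fit and 0.0376 without Ahr-/- replicate 1, but 0.103 by library size alone, 0.101 by the DESeq2 test and 0.0728 with a replicate block.

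*Cdkn1a*, a target gene of p53, lies on chromosome 17 from 29090976 to 29100727 on the plus strand. It had 1233, 987 and 823 normalised counts in Ahr+/+ mice, against 879, 811 and 867 in Ahr-/- mice. The Ahr+/+ libraries were spread widely and overlapped the Ahr-/- libraries. The coefficient of variation was 20.3% in Ahr+/+ and 4.24% in Ahr-/- B cells, where counting error alone gives 3.17% and 3.39%. The means were 1014 ± 206 and 852 ± 36.2 normalised counts (SD, n = 3 mice each), a log2 fold change of −0.26 ± 0.111 (SE, edgeR, adjusted p = 0.139, exact permutation p = 0.3). The fold was 0.835, with a 95% interval of 0.706 to 0.987. The value rested on single libraries, being −0.09 (adjusted p = 0.504 from edgeR) without Ahr+/+ replicate 1 and −0.39 (adjusted p = 0.0134 from edgeR) without Ahr+/+ replicate 3. *Cdkn1a* shares 7.7% of its exon bases with a gene annotated on the opposite strand, and the strand setting of the counting is not given in the sources used here.

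*Cdkn1c*, an imprinted gene on chromosome 7 from 143458339 to 143461050 on the minus strand, had 13, 18 and 12 counts in the Ahr+/+ and 9, 14 and 21 counts in the Ahr-/- libraries. The genotypes overlapped. At this depth the log2 fold change was −0.03 (adjusted p = 0.968 from edgeR), and the 95% interval of the fold, 0.581 to 1.66, leaves room for changes in either direction. An antisense gene, *Gm44732*, covers 30.7% of its exon bases. The ratio of *Cdkn1a* to *Cdkn1b* was 1.13, 0.902 and 0.803 in Ahr+/+ and 0.871, 0.859 and 0.932 in Ahr-/- B cells, a log2 difference of −0.08 (exact permutation p = 0.8) that turned to 0.06 without Ahr+/+ replicate 1. Summed, the CIP/KIP inhibitors amounted to 48.4 to 60.7 CPM in Ahr+/+ and 45.9 to 49.5 CPM in Ahr-/- B cells.

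**Figure D3:**
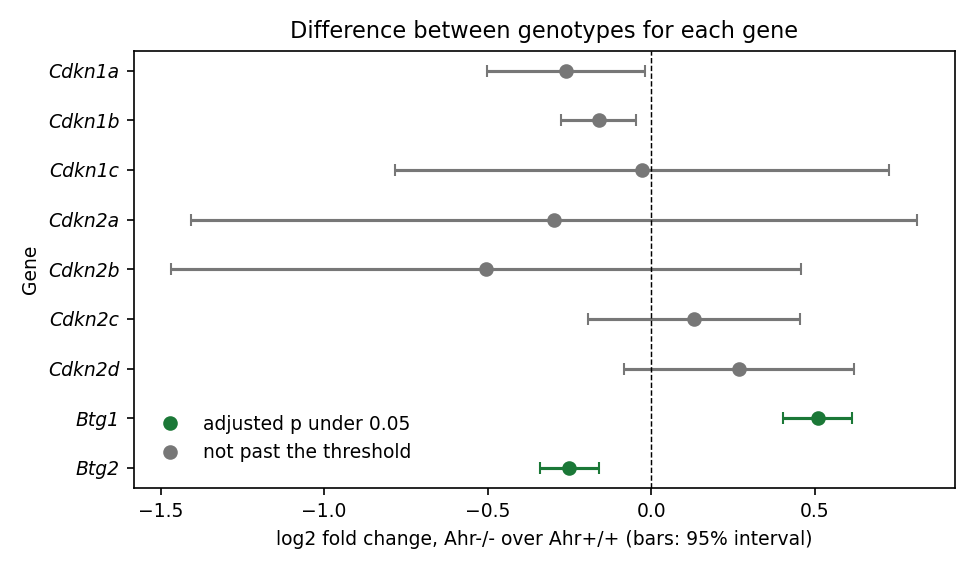
log2 fold change of each gene, Ahr-/- over Ahr+/+, with its 95% interval from edgeR. The intervals of *Btg1*, *Btg2*, *Cdkn1b* and *Cdkn1a* lie on one side of 0, and only *Btg1* and *Btg2* passed after adjustment over all genes.

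None of the 4 INK4 inhibitors passed the threshold by edgeR, and none had an unadjusted p under 0.05. *Cdkn2b*, *Cdkn2c* and *Cdkn2d* did not pass in any of the 15 alternatives tried, DESeq2 and limma-voom included. *Cdkn2a* was not tested with at least 10 counts in at least 3 libraries, had no adjusted p in DESeq2, and did not pass in the others. *Cdkn2d* (chromosome 9, 21288410 to 21291407, minus strand) had 70.9, 85.5 and 62.9 normalised counts in Ahr+/+ mice, against 80.7, 92.4 and 89.4 in Ahr-/- mice. The genotypes overlapped in 1 library of each. The means were 73.1 ± 11.5 and 87.5 ± 6.10 normalised counts (SD, n = 3 mice each), a log2 fold change of 0.27 ± 0.162 (SE, edgeR, adjusted p = 0.304), with a 95% interval of the fold of 0.943 to 1.54. It was 0.17 without Ahr+/+ replicate 3 and 0.40 without Ahr+/+ replicate 2. *Cdkn2c* (chromosome 4, 109660876 to 109667189, minus strand) had 89.4, 72.4 and 80.9 normalised counts in Ahr+/+ mice, against 82.4, 89.6 and 92.1 in Ahr-/- mice. Its log2 fold change was 0.13 ± 0.149 (SE, edgeR, adjusted p = 0.62), with a 95% interval of the fold of 0.874 to 1.37. It was 0.06 without Ahr+/+ replicate 2 and 0.21 without Ahr+/+ replicate 1. The ratio of *Cdkn2c* to *Cdkn2d* was 1.26, 0.847 and 1.29 in Ahr+/+ and 1.02, 0.969 and 1.03 in Ahr-/- B cells (exact permutation p = 0.4).

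*Cdkn2b* and *Cdkn2a* neighbour each other on the minus strand of chromosome 4 (89306299 to 89311039 and 89274471 to 89294653) and had few counts. *Cdkn2b* had 10, 9 and 10 counts in the Ahr+/+ and 1, 12 and 9 in the Ahr-/- libraries. After normalisation the Ahr-/- values, 1.72, 8.53 and 8.21, lay below the Ahr+/+ values of 9.71, 9.06 and 11.2, with a gap of less than 1 count. Its log2 fold change was −0.50 ± 0.442 (SE, edgeR, adjusted p = 0.498), and the 95% interval of the fold ran from 0.362 to 1.37. *Cdkn2a* had 5, 6 and 4 counts in the Ahr+/+ and 1, 7 and 5 in the Ahr-/- libraries, a log2 fold change of −0.30 ± 0.51 (SE, edgeR, adjusted p = 0.772). Its 2 annotated transcripts, which encode p16 and p19Arf, cannot be told apart in a count per gene. No difference was detected for either gene, and the intervals are wide. With 1 library left out, the log2 fold change of *Cdkn2b* ran from −0.76 (without Ahr-/- replicate 2) to −0.25 (without Ahr-/- replicate 1), and that of *Cdkn2a* from −0.52 to −0.10. Summed, the INK4 inhibitors amounted to 4.15 to 4.55 CPM in Ahr+/+ and 4.33 to 5.09 CPM in Ahr-/- B cells.

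**Figure D4:**
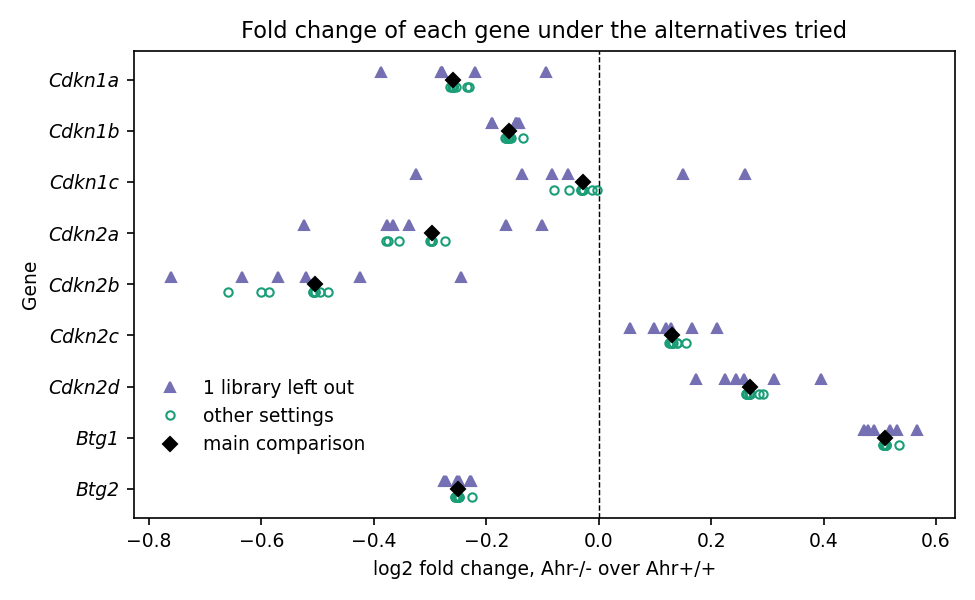
log2 fold change of each gene in the main comparison (diamonds), with 1 library left out (triangles) and under the other settings (circles). *Btg1* stays between 0.47 and 0.57 and *Btg2* between −0.27 and −0.22, and *Cdkn1c* lies on both sides of 0.

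Of the other BTG/TOB genes, which share the domain that binds the deadenylase, *Btg3* and *Btg4* had too few counts to be tested. *Tob2* fell from 6750 ± 202 to 6048 ± 244 normalised counts (SD, n = 3 mice each), a log2 fold change of −0.16 (adjusted p = 0.0192 from edgeR). It no longer passed without Ahr+/+ replicate 2, Ahr-/- replicate 1 or Ahr-/- replicate 2, when 0 genes of this list were lower. *Tob2* overlaps *Gm49476* on the opposite strand. *Tob1* had a log2 fold change of −0.12 (adjusted p = 0.501 from edgeR). Of 11 genes of the CCR4-NOT deadenylase, 1 rose and 1 fell, a share of 18.2% that is close to the 17.9% of all genes, and the median log2 fold change was −0.03. *Cnot8*, a catalytic subunit, rose from 3160 ± 21.2 to 3786 ± 159 normalised counts (log2 fold change 0.26, adjusted p = 5.45e-04 from edgeR, n = 3 mice each). *Cnot6l*, another catalytic subunit, fell from 4978 ± 139 to 4021 ± 108 normalised counts (log2 fold change −0.31, adjusted p = 1.3e-04 from edgeR, n = 3 mice each).

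Of 9 G1 cyclins and kinases that these inhibitors act on, 1 rose, a share of 11.1% against 17.9% of all genes tested. *Ccnd1*, which encodes cyclin D1, rose from 34.7 ± 5.14 to 93.0 ± 13.5 normalised counts (log2 fold change 1.40, adjusted p = 2.17e-04 from edgeR, n = 3 mice each). It too overlaps a gene on the opposite strand. *Ccnd2*, which encodes another D-type cyclin, had far more normalised counts, 19437 ± 1940 in Ahr+/+ and 22284 ± 1895 in Ahr-/- libraries. It did not pass (adjusted p = 0.0708 from edgeR). None of the 11 genes for ubiquitin-dependent turnover of p27kip1 and p21 passed by edgeR. Of them, 3 had an unadjusted p under 0.05, a share close to the 29.4% of all genes. By library size alone 1 was higher, and 1 was lower by DESeq2 and without Ahr+/+ replicate 2 or Ahr-/- replicate 1. The median log2 fold change was 0.05. Of 11 listed transcription factors tied to quiescence or to the inhibitors, *Myc* and *Bmi1* among them, 1 fell (9.09%). *Klf2*, a quiescence factor of lymphocytes, fell from 1285 ± 122 to 676 ± 56.3 normalised counts (log2 fold change −0.94, adjusted p = 2.43e-06 from edgeR, n = 3 mice each). Of 11 tested p53 targets other than *Cdkn1a* and *Btg2*, 1 fell (9.09%), with a median log2 fold change of −0.02. This gene, *Trp53inp1*, fell from 1894 ± 160 to 1467 ± 40.1 normalised counts (log2 fold change −0.37, adjusted p = 6.87e-04 from edgeR, n = 3 mice each).

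Markers of cell types moved with genotype as well. For comparison, 9.79% of all genes tested were higher and 8.13% lower in Ahr-/- libraries. Of 6 B cell markers 4 were higher in Ahr-/- libraries, and their sum was 1810 to 1900 CPM in Ahr+/+ and 2150 to 2240 CPM in Ahr-/- B cells. Of 8 markers of plasmacytoid dendritic cells 6 were higher and 1 lower, with a median log2 fold change of 1.36. *Siglech* rose 4.75-fold, *Klk1* 4.63-fold, *Runx2* 2.81-fold and *Lifr* 2.69-fold. The sum of this list, 313 to 344 CPM in Ahr+/+ and 337 to 371 CPM in Ahr-/- libraries, moved little, because it includes *Tcf4*, which fell from 7537 ± 330 to 4681 ± 226 normalised counts (SD, n = 3 mice each). Of 7 markers of conventional dendritic cells 4 were higher and 1 lower, with a median log2 fold change of 1.06 and sums of 21.1 to 24.3 and 22.7 to 27.5 CPM. Of 7 tested T cell markers *Cd5* was higher (2.50-fold) and *Cd3e* lower (a fold of 0.416). The T cell sums, 157 to 166 and 158 to 183 CPM, consist mostly of *Lck*. Of 4 NK cell markers *Ncr1* (1.92-fold) and *Klrb1c* (1.93-fold) were higher, with sums of 5.23 to 6.99 and 6.05 to 9.84 CPM. Of 6 markers of macrophages and monocytes *Cd14* was higher (3.48-fold) and *Emr1* lower (a fold of 0.0833), with a median log2 fold change of 0.66. The sums of this list, 20.2 to 26.5 and 5.67 to 17.7 CPM, include *Emr1*, which fell from 650 ± 14.7 to 54.1 ± 16.1 normalised counts (SD, n = 3 mice each). Markers of neutrophils summed to 0.884 to 1.54 and 0.332 to 3.01 CPM. Of 4 plasma cell markers 1 was higher and 2 lower, with sums of 370 to 526 and 348 to 391 CPM. Of the erythroid markers, *Hbb-b1*, *Hba-a1* and *Hba-a2* were at 0 in all libraries. The part of these cells in the levels of the 9 genes was not tested.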

How the data were processed

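Splenic B cell mRNA of 6 mice (3 of each genotype, stranded kit) was analysed. The authors deposited unnormalised read counts per gene, which were used here, and also scaled counts and the output of their own test (means, fold changes, p-values), which were not used. The submitters' processing notes list TopHat2 (version 2), HTSeq, DESeq and mm10 (GRCm38), with no role or order. The strand setting is not given in the sources used here.

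Genes reaching 10 counts in total were compared with edgeR 4.0.16 (R 4.3.3; TMM normalisation, quasi-likelihood test, Benjamini-Hochberg adjustment over all genes tested, threshold 0.05). Normalised counts are counts divided by the TMM-scaled library size relative to its mean. Intervals of 95% come from the fit. Alternatives used DESeq2 1.42.0, limma 3.58.1, other scalings, filters and thresholds, a replicate block, and leaving out each library. Lengths and positions are from GENCODE M21. The code was tested on simulated data.

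The 9 genes and all lists were chosen with earlier results of these data known. All 9 genes were named, with up to 4 genes per pathway list, those past the threshold with the smallest adjusted p. *Tob1*, *Btg3*, *Btg4*, *Ccnd2*, *Myc*, *Bmi1* and the cell type markers were named outside this rule, after their values were seen. P-values measure the spread between single mice.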

Additional observations from a re-analysis of the deposited data

How the results depend on the processing

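*Btg1* and *Btg2* kept their direction and passed the threshold under all 15 alternatives tried. *Cdkn1b* passed with a log2 fold change of −0.16 with DESeq2 size factors, −0.17 with limma-voom and −0.16 with a robust fit, which made 2 of the 9 genes lower. With 1 library left out it ran from −0.19 to −0.14, and *Cdkn1a* from −0.387 to −0.0945, so that 1 to 2 of the 9 genes were lower (2 without Ahr+/+ replicate 3 or Ahr-/- replicate 1). The ratio of *Cdkn1a* to *Cdkn1b* then ran from −0.19 to 0.06 on the log2 scale and turned to 0.0588 without Ahr+/+ replicate 1. The cause of these shifts was not tested. *Cdkn1c* ran from −0.32 to 0.26, *Cdkn2a* from −0.52 to −0.10, *Cdkn2b* from −0.76 to −0.25, *Cdkn2c* from 0.06 to 0.21 and *Cdkn2d* from 0.17 to 0.40. At an adjusted p under 0.01, 783 genes were higher and 690 lower, with 0 of the other BTG/TOB genes. With 1 library left out, 908 to 1384 genes were higher and 756 to 1217 lower, and the total was lowest, at 1664, without Ahr-/- replicate 2. By library size alone, 2 G1 cyclins and kinases, 1 turnover gene, 1 of the listed transcription factors and 1 p53 target were higher. Without a filter, 2 G1 cyclins and kinases were higher. In DESeq2 1 turnover gene was lower, and 1 p53 target was higher with DESeq2, limma-voom, the robust fit and at least 10 counts in at least 3 libraries. With 1 library left out, 1 to 2 G1 cyclins and kinases were higher (2 without Ahr+/+ replicate 3 or Ahr-/- replicate 1) and 0 to 1 p53 targets (1 without Ahr+/+ replicate 1). Lower were 0 to 1 turnover genes (1 without Ahr+/+ replicate 2 or Ahr-/- replicate 1) and 0 to 1 other BTG/TOB genes. Also lower were 1 to 2 of the listed transcription factors (2 without Ahr+/+ replicate 2) and 1 to 2 p53 targets (2 without Ahr+/+ replicate 3). With the length of the longest transcript, *Cdkn1a* stood at 12.7 and *Cdkn2a* at 0.149 RPKM in Ahr+/+ B cells, and *Cdkn1a* then differed from *Cdkn1b* beyond their spread. Whether replicate numbers pair the mice is not stated. Same-numbered libraries correlated at −0.136, 0.247 and −0.167, which cannot settle it with 3 libraries per genotype. With the replicate block 1239 genes were higher and 1064 lower, with 2 G1 cyclins and kinases higher. Depth limits *Cdkn1c*, *Cdkn2a* and *Cdkn2b*, which had at most 21 counts in any library.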
